A study of Homo sapiens with 12 samples.

Results

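The genes described here are 9 markers and regulators of germinal centre B cells: MME, LMO2, MYBL1, SERPINA9, GCSAM, S1PR2, EZH2, BACH2 and MEF2B. They were taken by symbol from the deposited expression table, which lists 61466 genes, and each of the 9 symbols matched 1 row. RNA sequencing had been applied to Farage and SU-DHL-8, 2 established lines of human diffuse large B cell lymphoma, to ask how they respond to morusinol, a prenylated flavonoid of mulberry. The groups were Farage with morusinol, Farage control, SU-DHL-8 with morusinol and SU-DHL-8 control, each harvested at 12 h with 3 libraries, or 12 libraries in all. The labels give lymph node as the tissue of both lines. Their genotype entry reads WT for controls and Morusinol-treated for treated cells, so no engineered allele is listed for any group; Farage and SU-DHL-8 come from different tumours. The sources used here state neither the dose nor the vehicle. Each line is 1 established culture, and the labels do not say whether the 3 libraries of a group came from separate cultures. The p-values therefore measure the spread between these libraries, which may be technical, and a test between the lines compares these cultures.

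Germinal centres are the sites in lymph nodes where activated B cells mutate their antibody genes and are selected for affinity. Cells there hold a programme kept by transcription factors such as BCL6, MEF2B and BACH2 and by the histone methyltransferase EZH2, and they leave it when they become plasma or memory cells. A large class of diffuse large B cell lymphomas retains this programme, and MME (CD10), LMO2, MYBL1, SERPINA9, GCSAM and S1PR2 are used to recognise it. S1PR2 and its partner GNA13 keep the cells confined to the follicle, GCSAM is an adaptor that tunes antigen receptor signalling and motility, and SERPINA9 belongs to the serpin family.

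Values are FPKM, fragments scaled by gene length and library depth, and tests are on log2(FPKM + 1). Genes that reached 1 FPKM in 3 or more libraries were tested, 17574 in all. A call means a limma p under 0.05 after Benjamini-Hochberg adjustment across the 17574. All 9 genes passed the filter, although LMO2, SERPINA9, S1PR2 and MEF2B did so through the Farage libraries alone. Depth, estimated from the table, was 9.37 to 12.7 M (mega) fragments per library in Farage with morusinol and 16.6 to 19.0 M in the Farage controls. In SU-DHL-8 it was 6.05 to 15.0 M with morusinol and 14.2 to 15.2 M in the controls, lowest in morusinol replicate 2. Every treated Farage library was thus below every Farage control in depth. Whether depth had a part in the results was not tested. All 6 B cell markers examined were present in both lines. Their summed FPKM was 613 to 660 in Farage with morusinol, against 966 to 1021 in the Farage controls, and 230 to 238 in SU-DHL-8 with morusinol, against 354 to 368 in the SU-DHL-8 controls. All 6 had lower means with morusinol in Farage and 4 of 6 in SU-DHL-8, where CD79A averaged 43.0 FPKM with morusinol and 175 FPKM in the controls while CD79B and PAX5 had higher means. The summed FPKM of 7 plasma cell markers was 183 to 188 in Farage with morusinol, against 119 to 125 in the Farage controls, and at 483 to 494 in SU-DHL-8 with morusinol, against 162 to 168 in the SU-DHL-8 controls. In Farage XBP1 and IRF4 alone had higher means with morusinol, and the other 5 had lower ones, JCHAIN at 2.82 FPKM with morusinol and 20.8 FPKM in the controls, whereas in SU-DHL-8 all 7 had higher means. SDC1, among the 7, averaged at most 0.0123 FPKM in any group, so its direction carries no weight in either line. Of 10 T and NK cell markers the sum stayed at or under 6.10 in every library, most of it PRF1 or NKG7, and the T cell receptor subunits CD3D, CD3E and CD3G averaged at most 0.0425 FPKM in any group. The 8 myeloid markers summed to at most 1.80, with S100A8 and S100A9 listed at 0 throughout, and the 8 fibroblast, endothelial and epithelial markers to at most 2.20. In bulk RNA, fewer cells of a type and less RNA per cell cannot be told apart. Whether these differences in B cell and plasma cell markers have a part in the results for the 9 genes was not tested.

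Promoters of 4 genes are shown, chosen by their changes. They belong to the gene that rose in both lines (BACH2) and the gene with the largest fall among the 9 (SERPINA9). The others belong to the confinement receptor that fell in Farage (S1PR2) and the adaptor that rose in Farage (GCSAM). S1PR2 was called higher in SU-DHL-8, but that call rests on few fragments. Each runs 5′ to 3′ on the strand of its gene, in the RefSeq annotation of GRCh38.p14, from 250 bases before the transcript start to 50 after it. Capitals mark matches to the motifs searched.
BACH2, chr6:90296794-90297093, minus strand: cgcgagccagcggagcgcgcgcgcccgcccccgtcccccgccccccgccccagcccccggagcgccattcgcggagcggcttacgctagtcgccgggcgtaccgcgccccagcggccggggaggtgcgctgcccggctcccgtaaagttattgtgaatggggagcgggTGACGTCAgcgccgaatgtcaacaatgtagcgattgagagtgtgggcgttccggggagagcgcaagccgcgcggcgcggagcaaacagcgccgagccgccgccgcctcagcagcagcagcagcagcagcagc
SERPINA9, chr14:94476148-94476447, minus strand: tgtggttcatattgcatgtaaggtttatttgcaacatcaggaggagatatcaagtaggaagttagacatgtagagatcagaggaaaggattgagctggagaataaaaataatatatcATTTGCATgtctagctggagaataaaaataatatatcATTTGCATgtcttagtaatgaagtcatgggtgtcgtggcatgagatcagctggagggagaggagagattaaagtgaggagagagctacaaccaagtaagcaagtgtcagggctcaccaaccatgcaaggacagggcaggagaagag
S1PR2, chr19:10231282-10231581, minus strand: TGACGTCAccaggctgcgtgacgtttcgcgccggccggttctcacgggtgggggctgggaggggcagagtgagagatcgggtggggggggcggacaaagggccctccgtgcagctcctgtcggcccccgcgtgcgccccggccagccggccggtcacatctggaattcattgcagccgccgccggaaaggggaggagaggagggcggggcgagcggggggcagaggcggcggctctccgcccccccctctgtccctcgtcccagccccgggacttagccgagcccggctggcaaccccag
GCSAM, chr3:112133199-112133498, minus strand: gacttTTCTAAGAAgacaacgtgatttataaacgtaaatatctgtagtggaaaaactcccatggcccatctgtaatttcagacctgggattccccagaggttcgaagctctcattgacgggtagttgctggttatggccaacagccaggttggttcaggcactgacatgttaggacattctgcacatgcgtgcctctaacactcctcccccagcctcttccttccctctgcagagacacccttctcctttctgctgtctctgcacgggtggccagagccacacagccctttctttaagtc

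The RefSeq table held windows for 7 of the 9 genes, 11 windows in all. The search took 9 motifs on both strands, all chosen with the expression values known. They were ATGCAAAT (octamer, POU2F factors), TGACGTCA (CRE, CREB and ATF factors), TGATGNAA (ATF4 with C/EBP), CAGGTG (E proteins), the ETS-IRF composite element (GGAA, any 2 bases, then GAAA; SPI1 or SPIB with an IRF), TTCNNNGAA (STAT factors, with a core shared with BCL6), TGANTCA (AP-1, with a core shared with BACH and MAF), TGACGTGG (XBP1 and ATF6) and TTTCCCGC (E2F). TGACGTCA and TGACGTGG share their first bases. BACH2 and S1PR2 each hold 1 copy of TGACGTCA, 82 and 250 bases before the start, a sequence present in 1.84% of all 34943 promoters of the same length. SERPINA9 holds the octamer in 2 places, 133 and 96 bases before the start and both as ATTTGCAT, while 1.77% of promoters hold it at all. The copies lie in a 37-base tandem repeat whose units begin at bases 93 and 130 of the window. MEF2B, whose window is not printed, holds 1 octamer 82 bases before its start. GCSAM holds TTCTAAGAA, a match to TTCNNNGAA, near the upstream end of its window, and 7.66% of promoters have such a match. CAGGTG was found in MME and MEF2B and occurs in 20.6% of promoters. The other 5 motifs had no match in these windows. These matches are letters in a window and do not show that a factor binds there.

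The first question is what morusinol did to these genes in each line. In Farage, BACH2, GCSAM and EZH2 rose and SERPINA9, MYBL1, S1PR2, MME and MEF2B fell, so that 8 of the 9 genes were called, 3 higher and 5 lower. Of all genes tested, 43.1% were called in Farage, 21.9% higher and 21.2% lower. In SU-DHL-8, BACH2, MME and S1PR2 rose and EZH2 fell, so that 4 of the 9 were called, where 46.8% of all genes were called, 25.1% higher and 21.6% lower. With TPM scaling the balance in SU-DHL-8 turned, with 44.4% of called genes higher in place of 53.7%. The SU-DHL-8 share is near that of all genes and is no result about these genes. The Farage count is a description, since LMO2, SERPINA9, S1PR2 and MEF2B passed the filter through the Farage libraries alone. The 9 genes were also chosen with earlier results of these data known. The median log2 change of the 9 was -0.38 in Farage, against -0.03 over all genes, and 0.01 in SU-DHL-8, against 0.02. The SU-DHL-8 median counts SERPINA9, listed at 0 in all 6 libraries, as no change.

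The values of treated and control libraries did not overlap for 8 of the 9 genes in Farage, 3 higher and 5 lower, where 51.0% of all genes were so separated, 25.8% higher and 25.3% lower. In SU-DHL-8 they did not overlap for 5 of the 9, 3 higher and 2 lower, where the share over all genes was 54.1%, 29.2% higher and 24.9% lower. These counts too are descriptions, given the filter and the choice of the genes.

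**Figure D1:**
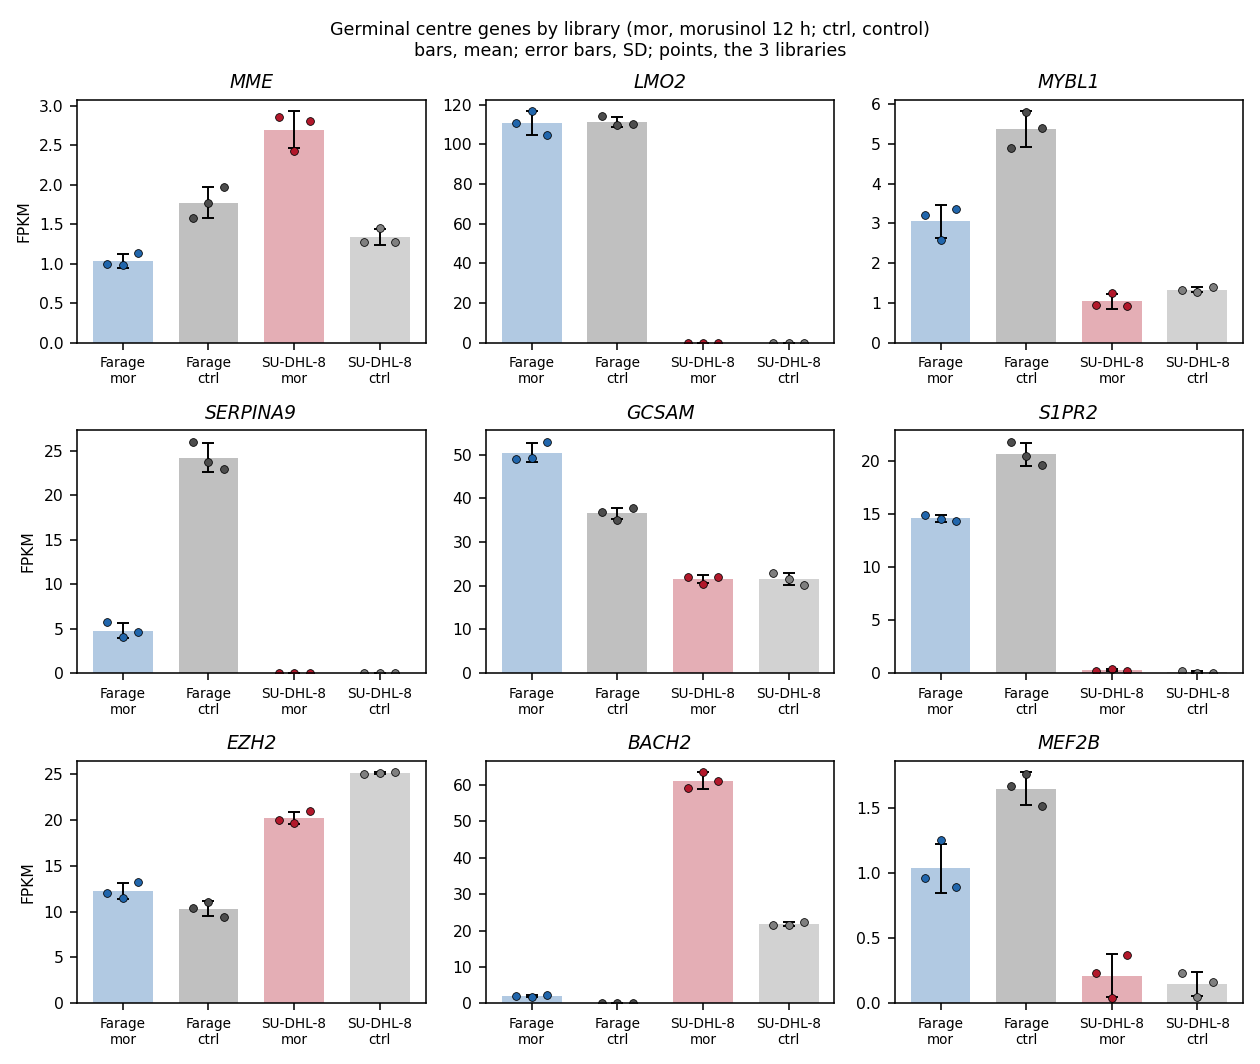
FPKM of the 9 germinal centre genes in each of the 12 libraries, 1 panel per gene with its own axis; bars are means, error bars the SD and points the 3 libraries of Farage with morusinol, Farage control, SU-DHL-8 with morusinol and SU-DHL-8 control. LMO2, SERPINA9, S1PR2 and MEF2B are near 0 in SU-DHL-8, whereas BACH2 reaches 59.0 to 63.5 FPKM there with morusinol.

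Among the surface and secreted products, MME encodes neprilysin, the membrane peptidase also known as CD10. It lies on chromosome 3 at 155024124 to 155183729 on the plus strand of GRCh38 (GENCODE 29, as for all positions below). MME had 0.993, 0.98 and 1.14 FPKM in Farage with morusinol, against 1.58, 1.77 and 1.97 FPKM in the Farage controls. In SU-DHL-8 it had 2.85, 2.43 and 2.80 FPKM with morusinol, against 1.28, 1.45 and 1.27 FPKM in the controls. All 3 treated libraries were below all 3 controls in Farage and above them in SU-DHL-8. The ratio of the means was 0.585 in Farage (log2 change -0.44 ± 0.0867 SE, limma adjusted p = 0.00190) and 2.02 in SU-DHL-8 (0.66 ± 0.0867, adjusted p = 9.7e-05). The difference between the responses, Farage minus SU-DHL-8, was -1.10 ± 0.123 on the log2 scale (limma adjusted p = 7.5e-05). All levels of MME were low, at 0.98 to 2.85 FPKM.

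SERPINA9, on chromosome 14 at 94462717 to 94479689 on the minus strand, encodes centerin, a serine protease inhibitor of germinal centre B cells. Its FPKM was 5.71, 4.02 and 4.56 in Farage with morusinol, against 26.0, 23.7 and 22.9 in the Farage controls. Every treated value lay far under every control value, and the ratio of the means was 0.197. The log2 change was -2.14 ± 0.0974 (limma adjusted p = 6.2e-08), the largest fall among the 9 genes in either line. All 6 SU-DHL-8 libraries listed SERPINA9 at 0. Its response there has no value, and the difference between the responses, -2.14 ± 0.138 (limma adjusted p = 2.0e-06), restates the Farage fall. Its promoter, with the repeated octamer, is the one shown above with 41.0% G and C, against 73.3% in that of BACH2. This window, which ends at 94476447, lies inside the GENCODE span of the gene. The RefSeq start it uses is therefore downstream of the GENCODE 5′ end at 94479689.

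GCSAM encodes the germinal centre associated signalling and motility adaptor, also known as HGAL, and lies on chromosome 3 at 112120841 to 112133305 on the minus strand. It had 49.1, 49.3 and 53.0 FPKM in Farage with morusinol, against 36.8, 35.1 and 37.8 FPKM in the Farage controls. In SU-DHL-8 it had 22.1, 20.5 and 22.0 FPKM with morusinol, against 22.8, 21.4 and 20.1 FPKM in the controls. The groups were separate in Farage and overlapped in SU-DHL-8. GCSAM averaged 50.5 ± 2.19 FPKM in Farage with morusinol and 36.6 ± 1.33 FPKM in the Farage controls (SD, n = 3 each), a log2 change of 0.45 ± 0.0538 (limma adjusted p = 6.2e-05). In SU-DHL-8 the change was 0.01, with a 95% interval of -0.11 to 0.13 (limma adjusted p = 0.974). The responses differed by 0.45 ± 0.0761 (limma adjusted p = 0.00121).

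S1PR2, on chromosome 19 at 10221433 to 10231331 on the minus strand, encodes the sphingosine-1-phosphate receptor that restrains migration of germinal centre B cells. It had 14.9, 14.5 and 14.3 FPKM in Farage with morusinol, against 21.8, 20.4 and 19.6 FPKM in the Farage controls, with no overlap. The ratio of the means was 0.707 and the log2 change -0.47 ± 0.0829 (limma adjusted p = 0.000969). In SU-DHL-8 the receptor was near the limit of detection, at 0.182, 0.408 and 0.202 FPKM with morusinol, against 0.171, 0.0193 and 0.00928 FPKM in the controls. These correspond to an estimated 7.5, 9.0 and 11 fragments with morusinol, against 9.5, 1.0 and 0.5 in the controls. The values did not overlap, but the highest control lay close to the lowest treated value. The log2 change of 0.24 ± 0.0829 was called (limma adjusted p = 0.0336). The call was lost without SU-DHL-8 control replicate 2 (adjusted p = 0.0990), SU-DHL-8 control replicate 3 (0.104), SU-DHL-8 morusinol replicate 2 (0.114) or Farage control replicate 2 (0.0501). The responses of the lines differed by -0.71 ± 0.117 (limma adjusted p = 0.000976). The span of S1PR2 overlaps that of DNMT1 on the same strand, and DNMT1 averaged 16.1 FPKM in Farage with morusinol, against 21.7 in the Farage controls, and 11.8 in SU-DHL-8 with morusinol, against 18.9 in the SU-DHL-8 controls.

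Among the nuclear factors, BACH2 gave the one response that was called in the same direction in both lines. BACH2 is a transcriptional repressor that holds back plasma cell genes such as PRDM1, and it lies on chromosome 6 at 89926529 to 90296908 on the minus strand. Its FPKM was 2.12, 1.83 and 2.23 in Farage with morusinol, against 0.121, 0.153 and 0.153 in the Farage controls. In SU-DHL-8 it was 59.0, 63.5 and 61.0 with morusinol, against 21.5, 21.5 and 22.3 in the controls. Treated and control values stood far apart in both lines, and every SU-DHL-8 value was above every Farage value. The Farage values rest on an estimated 262, 168 and 234 fragments with morusinol, against 22.5, 27.9 and 24.8 in the controls. The ratio of the means was 14.5 in Farage and 2.81 in SU-DHL-8. On the log2(FPKM + 1) scale the changes were alike, at 1.42 ± 0.0524 in Farage (limma adjusted p = 1.6e-08) and 1.45 ± 0.0524 in SU-DHL-8 (adjusted p = 8.8e-09).

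That scale understates the change of a gene whose control level is far below 1 FPKM, as BACH2 is in Farage. The difference between the responses of BACH2 was -0.03, with a 95% interval of -0.19 to 0.14 (limma adjusted p = 0.807). With 0.1 added in place of 1, the Farage change was 3.15 ± 0.0801 and the difference between the responses turned to 1.67 ± 0.113 (limma adjusted p = 4.7e-06). Which line shows the larger log2 change therefore depends on the pseudocount, while the rise in each line does not. The ratio of the means, which uses no pseudocount, was larger in Farage (14.5) than in SU-DHL-8 (2.81).

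EZH2, the catalytic subunit of Polycomb repressive complex 2, moved in opposite directions in the lines. It lies on chromosome 7 at 148807383 to 148884321 on the minus strand. EZH2 had 12.0, 11.5 and 13.2 FPKM in Farage with morusinol, against 10.3, 11.1 and 9.44 FPKM in the Farage controls. In SU-DHL-8 it had 19.98, 19.7 and 20.9 FPKM with morusinol, against 24.9, 25.1 and 25.2 FPKM in the controls. Neither pair of groups overlapped, although the gap in Farage was narrow. The log2 change was 0.23 ± 0.0603 in Farage (limma adjusted p = 0.0107) and -0.30 ± 0.0603 in SU-DHL-8 (adjusted p = 0.00197). The ratios of the means were 1.19 in Farage and 0.806 in SU-DHL-8, and the responses differed by 0.53 ± 0.0852 (limma adjusted p = 0.000893). In a fit of the 6 Farage libraries alone the rise of EZH2 was not called (limma adjusted p = 0.0612).

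MYBL1, also called A-MYB, is a transcription factor of the MYB family expressed in dividing germinal centre B cells, and it lies on chromosome 8 at 66562175 to 66614247 on the minus strand. MYBL1 had 3.20, 2.59 and 3.37 FPKM in Farage with morusinol, against 4.90, 5.80 and 5.40 FPKM in the Farage controls. In SU-DHL-8 it had 0.939, 1.24 and 0.918 FPKM with morusinol, against 1.31, 1.28 and 1.41 FPKM in the controls. Treated values were under all control values in both lines, narrowly so in SU-DHL-8. The ratio of the means was 0.568 in Farage (log2 change -0.66 ± 0.0966, limma adjusted p = 0.000295) and 0.776 in SU-DHL-8 (-0.20 ± 0.0966, adjusted p = 0.119). The SU-DHL-8 change was called when SU-DHL-8 morusinol replicate 2 was left out (limma adjusted p = 0.0498). The responses differed by -0.45 ± 0.137 (limma adjusted p = 0.0259). This call was lost in 10 of 21 alternatives, among them leaving out SU-DHL-8 control replicate 1 or 2, SU-DHL-8 morusinol replicate 2, Farage control replicate 2 or 3, or Farage morusinol replicate 2, with adjusted p between 0.0527 and 0.0647 for these.

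LMO2 and MEF2B complete the nuclear factors. LMO2, a LIM adaptor that bridges DNA-binding factors, lies on chromosome 11 at 33858576 to 33892289 on the minus strand. It was the most abundant of the 9 genes in Farage, with 111, 117 and 105 FPKM with morusinol, against 114, 110 and 110 FPKM in the controls. Treated and control values overlapped, and the log2 change was -0.01 with a 95% interval of -0.10 to 0.08 (limma adjusted p = 0.870). In SU-DHL-8 LMO2 was listed at 0 in all 3 morusinol libraries and in 2 controls, and at 0.0234 FPKM, about 1.07 fragments, in control replicate 3.

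MEF2B, a MADS-box factor that activates BCL6, lies on chromosome 19 at 19145568 to 19170289 on the minus strand. It had 0.965, 1.25 and 0.895 FPKM in Farage with morusinol, against 1.67, 1.77 and 1.52 FPKM in the Farage controls. These values rest on an estimated 22.6, 21.7 and 17.7 fragments with morusinol, against 58.5, 60.6 and 46.5 in the controls. The groups did not overlap, and the ratio of the means was 0.629. The log2 change of -0.38 ± 0.131 was called (limma adjusted p = 0.0380), but in 11 of 21 alternatives it was not (highest adjusted p = 0.308). Among these were the fits without Farage control replicate 1, 2 or 3 (adjusted p = 0.0882, 0.109 and 0.0568), Farage morusinol replicate 1 or 3 (0.0936 and 0.104) or SU-DHL-8 control replicate 3 (0.0512). In SU-DHL-8 MEF2B had 0.233, 0.0396 and 0.368 FPKM with morusinol, against 0.236, 0.0506 and 0.162 FPKM in the controls, which overlapped (limma adjusted p = 0.723). The difference between the responses was -0.45 ± 0.186 (limma adjusted p = 0.0850), and it was called without SU-DHL-8 morusinol replicate 2 (0.0345).

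**Figure D2:**
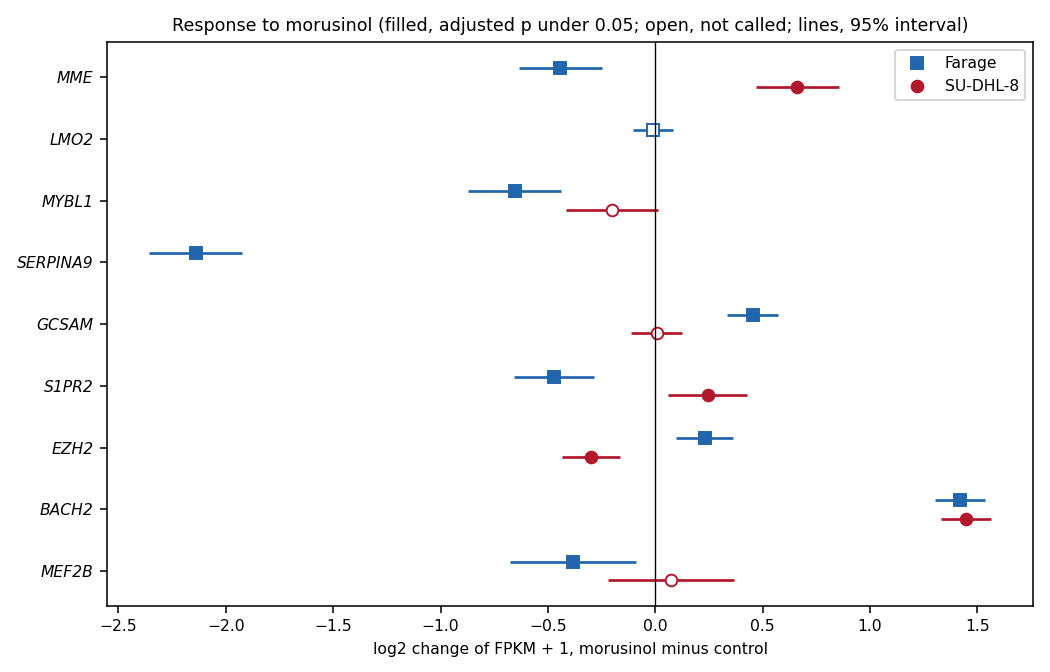
Log2 change of FPKM + 1 with morusinol for each germinal centre gene, with 95% intervals, in Farage (squares) and SU-DHL-8 (circles); filled symbols passed an adjusted p of 0.05 and open ones did not. MME, S1PR2 and EZH2 lie on opposite sides of 0 in the lines, BACH2 is near 1.4 in both, and LMO2 and SERPINA9 have no SU-DHL-8 symbol because they are listed at 0 in at least 5 of the 6 libraries there.

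Tested as a difference of responses, 6 of the 9 genes were called, GCSAM and EZH2 with the higher change in Farage and MME, MYBL1, SERPINA9 and S1PR2 with the lower. Over all genes 34.9% were called, 17.3% higher and 17.6% lower. The median difference was -0.45 for the 9 genes and -0.07 for all genes. The 6 include SERPINA9, whose difference restates its Farage fall, and S1PR2, which rests on few fragments in SU-DHL-8. LMO2, SERPINA9, S1PR2 and MEF2B passed the filter through Farage alone, so the count and the median are descriptions. For MME, S1PR2 and EZH2 the response was called in both lines with opposite signs.

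The second question is how the lines differ in this programme. In the controls all 9 genes were called between the lines, 7 of them higher in Farage and 2, EZH2 and BACH2, lower. Over all genes 64.1% were called, 34.5% higher and 29.6% lower in Farage. The values of the lines did not overlap for any of the 9 genes, where 69.5% of all genes were so separated, 37.4% higher and 32.1% lower. For LMO2, SERPINA9, S1PR2 and MEF2B this direction was fixed by the filter, which they passed through Farage alone, so the count is a description. Of the other 5 genes, MME, MYBL1 and GCSAM were higher and EZH2 and BACH2 lower in Farage. LMO2 averaged 111 ± 2.55 FPKM in Farage controls (SD, n = 3), against values listed at 0, 0 and 0.0234 in SU-DHL-8 controls. SERPINA9 averaged 24.2 ± 1.6 FPKM in Farage controls and was listed at 0 in SU-DHL-8. S1PR2 averaged 20.6 ± 1.09 FPKM in Farage controls and 0.0666 ± 0.0907 FPKM in SU-DHL-8 controls, where it rests on very few fragments.

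The other genes with a higher level in Farage controls were MYBL1, GCSAM, MEF2B and MME. MYBL1 averaged 5.37 ± 0.449 FPKM in Farage controls and 1.33 ± 0.0661 FPKM in SU-DHL-8 controls, a ratio of 4.03 (log2 difference 1.45 ± 0.0966, limma adjusted p = 2.3e-07). GCSAM averaged 36.6 ± 1.33 FPKM in Farage controls and 21.4 ± 1.37 FPKM in SU-DHL-8 controls, a ratio of 1.71 (limma adjusted p = 4.3e-07). MEF2B averaged 1.65 ± 0.125 FPKM in Farage controls and 0.150 ± 0.0933 FPKM in SU-DHL-8 controls. MME was 1.77 ± 0.198 FPKM in Farage controls and 1.33 ± 0.103 FPKM in SU-DHL-8 controls, a log2 difference of 0.25 ± 0.0867 (limma adjusted p = 0.0285) that turned to -0.08 with quantile normalization. The MME call was also lost without SU-DHL-8 control replicate 1 or 3 or Farage control replicate 2 or 3 (adjusted p between 0.0607 and 0.103).

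EZH2 and BACH2 had their higher level in SU-DHL-8. EZH2 averaged 10.3 ± 0.818 FPKM in Farage controls and 25.1 ± 0.112 FPKM in SU-DHL-8 controls, a ratio of 0.410. BACH2 averaged 0.142 ± 0.0183 FPKM in Farage controls and 21.8 ± 0.465 FPKM in SU-DHL-8 controls, a log2 difference of -4.32 ± 0.0524 (limma adjusted p = 4.7e-13). Under morusinol all 9 genes were again called, 6 higher and 3 lower in Farage, where 65.1% of all genes were called, 33.0% higher and 32.1% lower. The values of the lines again overlapped for none of the 9, where 67.2% of all genes were so separated, 33.9% higher and 33.3% lower. Of the 5 genes not bound by the filter, MYBL1 and GCSAM were higher and MME, EZH2 and BACH2 lower in Farage. MME was now among the lower ones, at 1.04 ± 0.0864 FPKM in Farage with morusinol and 2.69 ± 0.232 FPKM in SU-DHL-8 with morusinol (log2 difference -0.86 ± 0.0867, limma adjusted p = 6.3e-06).

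The order of the 4 groups by mean level was as follows. For MYBL1 and S1PR2 it ran from Farage control, the highest, through Farage with morusinol to the SU-DHL-8 groups, which for MYBL1 ended with the treated cells and for S1PR2 with the controls. For LMO2, SERPINA9 and MEF2B the Farage groups were also above the SU-DHL-8 groups, and for GCSAM the treated Farage cells were highest. For BACH2 the order was SU-DHL-8 with morusinol, SU-DHL-8 control, Farage with morusinol and Farage control. For MME it was SU-DHL-8 with morusinol, Farage control, SU-DHL-8 control and Farage with morusinol, and for EZH2 SU-DHL-8 control, SU-DHL-8 with morusinol, Farage with morusinol and Farage control. Neighbouring groups in these orders were separate in all their libraries, except the pair within each line for LMO2 and the pair within SU-DHL-8 for SERPINA9, GCSAM and MEF2B. The label of germinal centre genes thus describes a set that SU-DHL-8 expressed in part: 5 of the 9 were at 0.918 FPKM or more in all its libraries, and LMO2, SERPINA9, S1PR2 and MEF2B were at 0.408 FPKM or less.

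**Figure D3:**
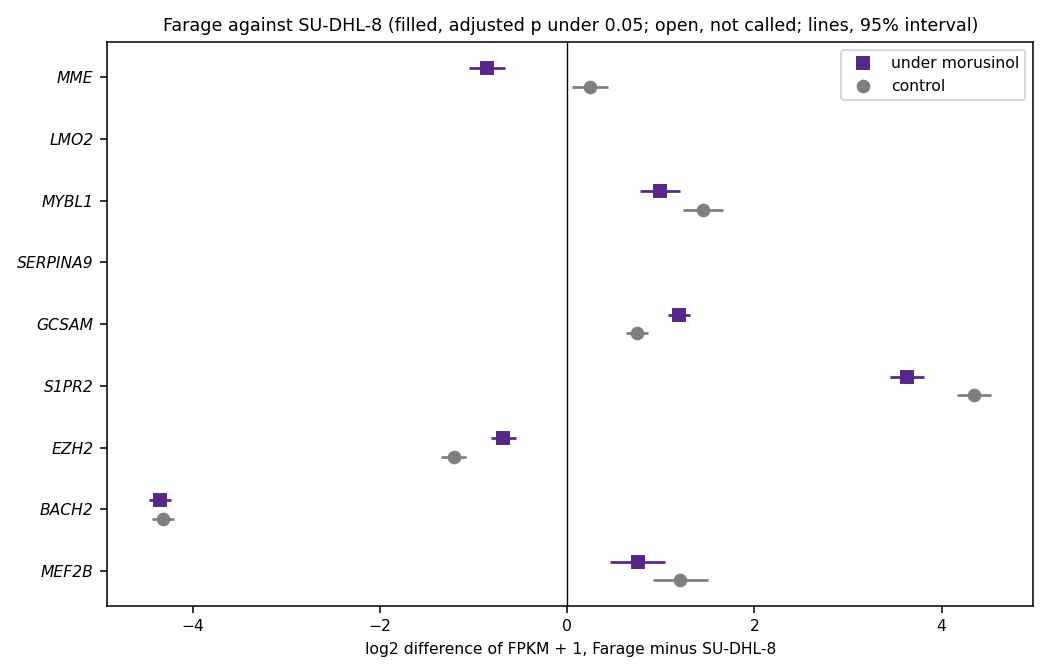
Log2 difference of FPKM + 1, Farage minus SU-DHL-8, for each germinal centre gene with 95% intervals, between morusinol libraries (squares) and between control libraries (circles); filled symbols passed an adjusted p of 0.05. BACH2 and EZH2 are left of 0 under both conditions, MME changes side, and LMO2 and SERPINA9 are not drawn because SU-DHL-8 is listed at 0 or nearly so.

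Genes that work with the 9, or mark the same or the opposing state, were taken from 10 lists. These counts can be read beside the shares over all genes given above, and no list was tested. Of 19 tested genes in a list of other germinal centre B cell genes, 5 rose and 12 fell in Farage (median log2 change -0.39), and 3 rose and 6 fell in SU-DHL-8 (median 0.00). The SU-DHL-8 median is the value of CXCR5, which was listed at 0 in every SU-DHL-8 library and counts as no change. BCL6, the repressor at the centre of the programme, averaged 15.9 FPKM in Farage with morusinol and 39.8 FPKM in the Farage controls (log2 change -1.27 ± 0.0746, limma adjusted p = 4.3e-07). In SU-DHL-8 BCL6 averaged 0.285 FPKM with morusinol and 0.652 FPKM in the controls (log2 change -0.37 ± 0.0746, limma adjusted p = 0.00211). CD38, an ectoenzyme of germinal centre and plasma cells, fell in Farage (-0.92 ± 0.0620) and rose in SU-DHL-8 (1.03 ± 0.0620), as MME did. FAS, the death receptor, and KLHL6, a ubiquitin ligase adaptor of germinal centre B cells, rose in both lines. FAS changed by 0.69 in Farage and 1.62 in SU-DHL-8, and KLHL6 by 0.32 in Farage and 0.67 in SU-DHL-8.

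Of 6 tested genes that classify the opposing, activated B cell type, all 6 rose in Farage (median 0.73) and 2 rose and none fell in SU-DHL-8 (median 0.06, and -0.00 with TPM scaling). IRF4, which drives plasma cell formation, and CCDC50, a ubiquitin-binding signalling protein, were the SU-DHL-8 pair. IRF4 averaged 98.2 FPKM in Farage with morusinol and 48.5 FPKM in the Farage controls (limma adjusted p = 2.2e-08). PIM2, a survival kinase, averaged 150 FPKM in Farage with morusinol and 38.3 FPKM in the Farage controls (1.94 ± 0.0696, limma adjusted p = 1.3e-08), while in SU-DHL-8 its change of 0.11 was not called (adjusted p = 0.256). CREB3L2, a membrane-bound transcription factor, rose by 1.34 in Farage and was near 0 in SU-DHL-8. TNFRSF13B and CYB5R2, also in the list, did not pass the filter, and both had lower means with morusinol in Farage. TNFRSF13B averaged 0.0423 FPKM in Farage with morusinol and 0.411 FPKM in the Farage controls, and CYB5R2 0.0717 and 0.147 FPKM. In Farage the tested genes of this list thus rose, while the other germinal centre B cell genes went both ways, 5 higher and 12 lower. This is a description with no test of the lists.

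Of 13 tested transcription factors of the programme, 3 rose and 7 fell in Farage (median -0.41), and 2 rose and 8 fell in SU-DHL-8 (median -0.37). POU2F2, an octamer-binding factor, averaged 9.99 FPKM in Farage with morusinol and 26.8 FPKM in the Farage controls (log2 change -1.33 ± 0.0947), and 0.422 FPKM in SU-DHL-8 with morusinol and 3.02 FPKM in the SU-DHL-8 controls (-1.50 ± 0.0947). IKZF1, a zinc finger factor of lymphocytes, fell in both lines (-0.57 in Farage and -1.19 in SU-DHL-8). SPIB, an ETS factor, rose slightly in Farage (0.24 ± 0.0730) and fell in SU-DHL-8 (-3.16 ± 0.0730), where it averaged 0.573 FPKM with morusinol and 13.1 FPKM in the controls.

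The BACH2 list holds its small MAF partners, corepressors and genes it represses. Of 12 tested, 6 rose and 2 fell in Farage (median 0.54), and 7 rose and 5 fell in SU-DHL-8 (median 0.19). PRDM1, the plasma cell regulator that BACH2 represses, averaged 2.16 FPKM in Farage with morusinol and 3.25 FPKM in the Farage controls (log2 change -0.43 ± 0.0903). In SU-DHL-8 PRDM1 averaged 4.11 FPKM with morusinol and 1.67 FPKM in the controls (0.94 ± 0.0903, limma adjusted p = 1.0e-05). XBP1, a secretory factor of plasma cells, rose in both lines (2.49 in Farage and 1.95 in SU-DHL-8). BACH1, the related repressor, rose by 1.45 in Farage and by 0.52 in SU-DHL-8.

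Partners of EZH2 were split in direction. Of 12 tested genes of Polycomb repressive complex 2 and its opposing demethylases, 6 rose and 4 fell in Farage (median 0.10), and 3 rose and 5 fell in SU-DHL-8 (median -0.15). RBBP4 and RBBP7, histone-binding subunits, fell in both lines, RBBP7 to 21.0 FPKM in Farage with morusinol, against 26.7 FPKM in the Farage controls, and to 14.8 FPKM in SU-DHL-8 with morusinol, against 29.2 FPKM in the SU-DHL-8 controls. MTF2, an accessory subunit, fell too (-0.61 in Farage and -0.40 in SU-DHL-8). KDM6B, a demethylase that removes the mark EZH2 places, rose in both (1.23 ± 0.0742 in Farage and 1.51 ± 0.0742 in SU-DHL-8).

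Of 8 tested genes of confinement and migration, which surround S1PR2, 3 rose and 1 fell in Farage (median 0.02), and 2 rose and 3 fell in SU-DHL-8 (median -0.23). CXCR4, the chemokine receptor of the dark zone, averaged 27.7 FPKM in Farage with morusinol and 7.16 FPKM in the Farage controls (log2 change 1.81 ± 0.0578). In SU-DHL-8 CXCR4 averaged 230 FPKM with morusinol and 103 FPKM in the controls (1.15 ± 0.0578). GNA13, the G protein subunit that carries the S1PR2 signal, rose by 0.29 in Farage and by 0.33 in SU-DHL-8. ARHGEF1, the exchange factor after GNA13, changed by 0.20 in Farage and by -0.23 in SU-DHL-8, both called.

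The remaining lists surround MYBL1, LMO2 and MEF2B or the process they serve. Of 6 tested MYB and MuvB genes, 2 rose and 2 fell in Farage (median 0.11), and 2 rose and 3 fell in SU-DHL-8 (median -0.21). MYBL2, the relative of MYBL1 that acts in the cell cycle, averaged 88.6 FPKM in Farage with morusinol and 159 FPKM in the Farage controls, and 123 FPKM in SU-DHL-8 with morusinol and 295 FPKM in the SU-DHL-8 controls. MYB itself rose in SU-DHL-8 (0.68 ± 0.0389), and its change of 0.08 in Farage was not called (limma adjusted p = 0.143). Of 9 tested genes of the LMO2 complex, 2 rose and 5 fell in Farage (median -0.32), and 1 rose and 4 fell in SU-DHL-8 (median -0.24). LYL1, a helix-loop-helix partner of LMO2, averaged 4.37 FPKM in Farage with morusinol and 5.86 FPKM in the Farage controls, and 5.73 FPKM in SU-DHL-8 with morusinol and 27 FPKM in the SU-DHL-8 controls. LMO4, a relative of LMO2, rose in both lines (0.38 in Farage and 0.95 in SU-DHL-8).

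Of 12 tested MEF2 factors and cofactors, 5 rose and 1 fell in Farage (median 0.18), and 6 rose and 3 fell in SU-DHL-8 (median 0.16). HDAC5, a deacetylase that binds MEF2 factors, averaged 9.19 FPKM in Farage with morusinol and 2.40 FPKM in the Farage controls (log2 change 1.59 ± 0.0799), and 12.8 FPKM in SU-DHL-8 with morusinol and 4.79 FPKM in the SU-DHL-8 controls (1.25 ± 0.0799). MEF2A, a relative of MEF2B, rose by 0.39 in Farage and by 0.71 in SU-DHL-8. Of 11 tested genes of antibody diversification, none rose in either line, while 8 fell in Farage (median -0.32) and 8 fell in SU-DHL-8 (median -0.39). UNG, the uracil glycosylase that acts on deaminated antibody genes, averaged 10.9 FPKM in Farage with morusinol and 26.0 FPKM in the Farage controls, and 4.48 FPKM in SU-DHL-8 with morusinol and 22.4 FPKM in the SU-DHL-8 controls. MSH6, a mismatch repair gene, fell in both lines as well, with a log2 change of -0.52 in Farage and -0.70 in SU-DHL-8.

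**Figure D4:**
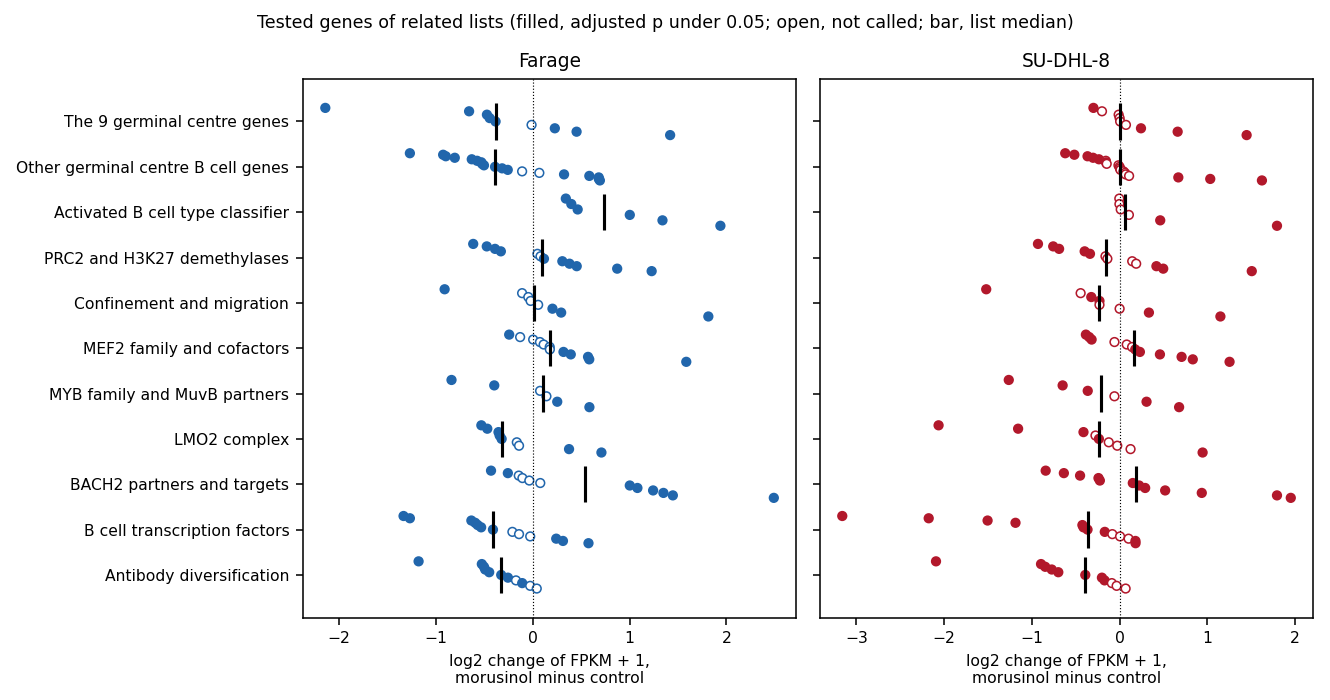
Log2 change of FPKM + 1 with morusinol for the tested genes of the 9 germinal centre genes and 10 related lists, in Farage (left) and SU-DHL-8 (right); each point is a gene, filled where the adjusted p was under 0.05, and the vertical bar is the median of the list. All 6 tested activated B cell type genes are right of 0 in Farage, the antibody diversification genes have no filled point right of 0 in either line, and genes listed at 0 in a line lie at 0.

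Across the 12 libraries each gene was also set beside the tested genes with the most similar profile, by Pearson r of log2(FPKM + 1). These r describe 2 lines and 2 conditions and are mostly set by the step between the lines. The closest profiles to MME were those of EEF1E1 (r = 0.973) and KLHL42 (0.972). The closest to SERPINA9 were IL2RB (0.999) and MPEG1 (0.998), and the closest to S1PR2 were SORL1 (0.999) and CPM (0.999). GCSAM was closest to HTATIP2 (0.996) and CREB3L2 (0.995). MYBL1 was closest to CHI3L2 (0.992) and STAP1 (0.991), the second of which is itself in the list of other germinal centre B cell genes. BACH2 was closest to RNF146 (0.998) and PCMTD2 (0.997), EZH2 to RB1 (0.994) and NUCKS1 (0.993), LMO2 to SOCS6 and CTPS2 (both 0.9998), and MEF2B to NSA2P5 (0.986) and NEDD9 (0.984). Among the 9 genes themselves, LMO2, MYBL1, SERPINA9, GCSAM, S1PR2 and MEF2B had pairwise r of 0.747 to 0.995, again over libraries that share the step between the lines. BACH2 and EZH2 had r of -0.9735 to -0.8266 with these genes and 0.896 with each other. MME had r of -0.577 to -0.247 with the same genes.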

How the data were processed

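RNA from 12 libraries was sequenced, with libraries made by a SMARTer mRNA-seq kit per the labels' protocols. The authors deposited 1 table of FPKM; no counts were used, and the sources used here name no aligner, counting program, annotation or strand. The mouse builds GRCm38 and mm10 are listed per the submitters' processing notes, yet all 61466 identifiers are human, and 58297 (94.8%) match GENCODE 29, the source of positions. Columns marked n were read as controls, since no other group remains for them in the labels. The mitochondrial genes are at 0 in every library, so a value of 0 is given only as listed. Depth was estimated from the steps of low values times exon length: 53.9% to 56.9% of values under 50 fragments were whole within 0.02, so no counting interval is given.

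Genes that reached 1 FPKM in 3 or more libraries (17574) were put on the log2(FPKM + 1) scale. A single model over the 12 libraries, with a mean for each group, was fitted with limma 3.58.1 under R 4.3.3 (trended, robust empirical Bayes). The contrasts tested were morusinol minus control per line, the difference of these responses, and Farage minus SU-DHL-8 under each condition. P-values were two-sided and adjusted by Benjamini-Hochberg over all tested genes. The fit was tested on simulated data. Tables and plots used pandas 2.3.3, numpy 2.4.6 and matplotlib 3.10.9 under Python 3.11.15. Named genes were the 9 members, up to 4 tested genes per list with the smallest sum of p ranks over both morusinol contrasts, the 2 most similar profiles per member (mean FPKM of at least 5 in the highest group), and marker genes. Genes that overlap a member were named too. Further list genes, such as ASB13, ITPKB and MAML3, were named outside this rule, for description and with their values known. The members and lists were chosen with earlier results of these data known. Alternatives were other pseudocounts, filters, scalings and priors, fits per line, a replicate block, and leaving out each library.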

Additional observations from a re-analysis of the deposited data

Results flagged for a closer look

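For 6 of the 9 genes the response to morusinol differed between the lines by the test of the difference itself (limma, adjusted p under 0.05 over 17574 genes). Over all genes 34.9% were called for this difference. SERPINA9 and S1PR2 passed the filter through the Farage libraries alone, so the count is a description. Each value is the Farage change minus the SU-DHL-8 change on the log2(FPKM + 1) scale. MME differed by -1.10, with a fall in Farage and a rise in SU-DHL-8. S1PR2 differed by -0.71, also with a fall in Farage and a rise in SU-DHL-8, the rise resting on few fragments. EZH2 differed by 0.53, with a rise in Farage and a fall in SU-DHL-8. GCSAM differed by 0.45, with a rise in Farage. MYBL1 differed by -0.45, with a fall in Farage, and this call was kept in 11 of 21 alternatives. SERPINA9 differed by -2.14, which is its Farage fall alone, since it was listed at 0 in SU-DHL-8.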

How the results depend on the processing

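Of 958 values of single genes under the alternatives, 914 kept their side of the threshold with no called value turning sign, 35 lost the call, 5 gained one and 4 turned direction with a call in either fit. Of the 914, 18 were uncalled values near 0 that changed sign, of LMO2, BACH2, GCSAM and MEF2B. The 4 were the BACH2 difference between responses, -0.03 as reported and 1.67 with a pseudocount of 0.1, 0.52 with 0.5 and 0.90 with TPM scaling, and the MME difference between control lines, 0.25 as reported and -0.082 with quantile normalization. For MME the cause was not tested. The number of the 9 genes called ranged over 6 to 8 in Farage, 3 to 5 in SU-DHL-8, 5 to 7 for the difference between responses and 8 to 9 between the lines under either condition. S1PR2 in Farage lost its call with a pseudocount of 0.1 (limma adjusted p = 0.268), and in SU-DHL-8 without the filter on low values (0.0828), with quantile normalization (0.0899) and in a fit of that line alone (0.106). MYBL1 in SU-DHL-8 gained a call with TPM scaling (0.0351) and quantile normalization (0.0111). MEF2B was not tested with a filter on mean FPKM. Deviations of same-numbered libraries correlated by -0.0788 to 0.0544, and those of other pairs by -0.0957 to 0.1149. No shared effect of the replicate number was seen, but this cannot tell whether libraries were prepared as pairs. With a replicate block 7287 genes were called in Farage, 7935 in SU-DHL-8, 5786 for the difference, 11145 between controls and 11330 between morusinol libraries, and of the 9 genes only MEF2B in Farage lost its call (adjusted p = 0.0660). Of the genes called for the difference, 49.6% were higher in Farage as reported and 62.5% with TPM scaling. In SU-DHL-8 53.7% of the genes called with morusinol were higher as reported and 44.4% with TPM scaling. Between controls 53.8% were higher in Farage as reported and 42.5% with quantile normalization, and between morusinol libraries 50.7% as reported and 61.8% with TPM scaling. Between the lines, TPM scaling moved the median of all genes by 0.10 in controls and 0.19 under morusinol, and quantile normalization by -0.19 and -0.10. Depth limits S1PR2 and MEF2B in SU-DHL-8, where a value can rest on less than 10 fragments.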

Other observations

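Several of the 9 genes share their span with other annotated genes, and the sources used here do not state the strand of counting, so reads of such pairs cannot be told apart with certainty. AC132216.1, antisense to LMO2, averaged 13.8 FPKM in Farage with morusinol and 9.95 FPKM in the Farage controls, and was listed at 0 in SU-DHL-8. C3orf52, opposite to GCSAM, averaged 5.05 FPKM in Farage with morusinol, 3.91 FPKM in the Farage controls, 1.59 FPKM in SU-DHL-8 with morusinol and 2.33 FPKM in the SU-DHL-8 controls. Inside BACH2, RN7SKP110 on the same strand averaged 1.20 FPKM in Farage with morusinol and 0.249 FPKM in the Farage controls, and 10.8 FPKM in SU-DHL-8 with morusinol and 2.78 FPKM in the SU-DHL-8 controls, the same order as BACH2. BORCS8-MEF2B, which overlaps MEF2B on the same strand, averaged 0.0663 FPKM in Farage with morusinol and 0.440 FPKM in the Farage controls. In SU-DHL-8 it averaged 0.0937 FPKM with morusinol and 0.0236 FPKM in the controls. AL132708.1, antisense to SERPINA9, averaged 0.613 FPKM in the Farage controls and was listed at 0 in the other groups. MME-AS1, antisense to MME, reached at most 0.387 FPKM in any library.

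A further 3 genes used to classify the germinal centre type, picked for description after their values were seen, were nearly absent from SU-DHL-8 or low there. Of the 19 tested genes of their list, 14 were called higher and 5 lower in Farage controls than in SU-DHL-8 controls, CD38, RGS13, KLHL6, DENND3 and SSBP2 being the 5. ASB13 averaged 27.1 FPKM in Farage with morusinol and 35.8 FPKM in the Farage controls, against at most 0.0098 FPKM on average in SU-DHL-8. ITPKB averaged 83.0 FPKM in Farage with morusinol and 51.4 FPKM in the Farage controls, and 0.852 FPKM in SU-DHL-8 with morusinol and 1.07 FPKM in the SU-DHL-8 controls. MAML3 averaged 1.395 FPKM in Farage with morusinol and 0.594 FPKM in the Farage controls, and 0.0410 FPKM in SU-DHL-8 with morusinol and 0.00988 FPKM in the SU-DHL-8 controls.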
